A study of Macaca fascicularis with 3 samples.

Results

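The 10 genes described here are FOXL2, NR5A2, WT1, GATA4, NR2F2, IRX3, LHX9, WNT4, RSPO1 and LGR5, the transcription factors and WNT signals that mark or shape the pregranulosa cell of the fetal ovary. They were taken by symbol from the feature lists, which held all 10 among 26017 monkey features. Their levels were read in mouse ovarian somatic cells that had been cultured with cynomolgus monkey germ cells in xenogeneic reconstituted ovaries, all taken at the culture time that the labels write as ag49+52. The germ cells came from 1 embryonic stem cell line, 15XRi-AGVT#7, labelled wildtype and carrying the TFAP2C-EGFP and DDX4-tdTomato reporters. There were 3 single-cell libraries, which differ in the mouse stage of the somatic cells: E13.5, then E14.5, then E15.5. Values by library are given in this order throughout. The somatic cells were sorted as reporter-negative cells and mixed back with the sorted germ cells, so the sort and the mixing set how many of each were loaded. The sources used here name neither the mouse strain nor the number of fetuses behind an aggregate.

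In the fetal mouse ovary, supporting cells take the granulosa fate under FOXL2 and under WNT4 and RSPO1, which act through beta-catenin. RSPO1 binds LGR receptors and so keeps the ubiquitin ligases ZNRF3 and RNF43 from removing WNT receptors. Early gonadal factors such as WT1, GATA4 and LHX9 act before that choice in the genital ridge, and LGR5 is known in mouse from the ovarian surface epithelium and the pregranulosa cells that arise from it. NR2F2 is best known from the interstitial cells of the gonad.

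Reads had been counted on monkey genes only, so a mouse transcript is seen only as far as its reads match the monkey gene. For that reason levels are compared between cell states and libraries, never between genes. Mouse barcodes were those with at least 1000 UMIs and under 1% of UMIs in the 13 mitochondrially encoded genes, 4099 of 7827 deposited barcodes (1643, 717 and 1739 by library). They held 11642304, 5548443 and 11387916 UMIs, with medians of 6457, 6699 and 5325 UMIs. They were clustered without the 10 genes, and 3803 fell into 4 states set by the levels of INHA, AMHR2, COL1A2, COL3A1 and UPK3B. The UPK3B-positive state held 40, 33 and 225 barcodes by library, the INHA-high state 599, 303 and 477, the INHA-low state 312, 68 and 355, and the stromal state 612, 184 and 595.

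The markers that set the states are given as a description, since the rule fixed their order. INHA, the inhibin alpha subunit of granulosa cells, stood at 36.9, 3050, 885 and 24.5 counts per 1000000 UMIs (CPM) in the UPK3B-positive, INHA-high, INHA-low and stromal barcodes, and COL1A2, a fibrillar collagen, at 364, 94.3, 119 and 3209 CPM. COL3A1, the other collagen of the rule, was at 1028, 8.997, 68.45 and 1752 CPM in the same order, so it was high in UPK3B-positive barcodes too. UPK3B, a surface epithelial and mesothelial gene, was at 144, 0, 3.11 and 0.151 CPM. The 7 immune markers summed to at most 1.97 CPM in any state and library, and the monkey germ cell markers to at most 53.2 CPM. Within the INHA-high state, 1 cluster of 502 barcodes came mostly from E15.5 (454) and the other 2 clusters, of 280 and 597, mostly from E13.5 and E14.5. No barcode sequence of the 4 states occurred in another library.

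FOXL2, the forkhead factor that maintains granulosa identity, was highest in the INHA-high state and almost absent from the UPK3B-positive one. It had 0, 5.12 and 0 CPM in the UPK3B-positive barcodes, 53.3, 50.7 and 52.4 CPM in the INHA-high barcodes, 25.1, 21.7 and 17.5 CPM in the INHA-low barcodes and 27.6, 22.0 and 16.4 CPM in the stromal barcodes. The INHA-high values lay within 3 CPM of each other and above all others, while the INHA-low and stromal values overlapped. FOXL2 was 2.35-fold higher in INHA-high than in INHA-low barcodes (log2 fold change 1.24 ± 0.18 SE, adjusted p = 1.8e-05) and 2.06-fold higher than in stromal barcodes (adjusted p = 1.6e-05), in 3 of 3 libraries each. The UPK3B-positive state held a single FOXL2 UMI, in E14.5, against 582 in the INHA-high state, a ratio of 0.00838 per UMI sequenced with an exact 95% counting interval of 0.000212 to 0.0469. The stromal level of FOXL2 was 43.4% of its INHA-high level, and that of AMH, a granulosa gene outside the rule for the states, was 1.29% of its own. AMH was itself among the leading genes of INHA-high clusters, and other granulosa markers varied. In INHA-high and stromal barcodes KITLG stood at 392.9 and 19.12 CPM and GJA1 at 593 and 203.7 CPM. FST stood at 47.05 and 25.75 CPM there and INHBA at 5.578 and 40.66 CPM. How the counting treated strand and overlapping genes is not given in the sources used here, so FOXL2 UMIs cannot be told apart from those of a transcript that overlaps it. With stromal barcodes that held an INHA UMI and INHA-high barcodes with 10 or more collagen UMIs per 10000 left out, the log2 fold change of FOXL2 in INHA-high over stromal barcodes was 1.08 (adjusted p = 8.3e-06).

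NR5A2, a nuclear receptor required in granulosa cells for ovulation, separated the INHA-high state from the other 3. It had 6.14, 10.2 and 3.98 CPM in UPK3B-positive, 173, 185 and 107 CPM in INHA-high, 21.2, 51.2 and 17.9 CPM in INHA-low and 5.09, 3.47 and 2.46 CPM in stromal barcodes. No INHA-high value overlapped those of another state. NR5A2 was 5.85-fold higher in INHA-high than in INHA-low barcodes (log2 fold change 2.55 ± 0.16 SE, adjusted p = 2.0e-11) and 5.58-fold higher in INHA-low than in stromal barcodes (adjusted p = 1.4e-07). The second difference was 8.51-fold without the E13.5 library and was not called at Leiden resolution 0.5 (adjusted p = 0.086). After each barcode was thinned to 3000 UMIs, leaving out the shallower ones (1355 of 1379 INHA-high and 1157 of 1391 stromal barcodes stayed), an NR5A2 UMI was found in 40.4%, 43.1% and 24.7% of INHA-high barcodes, against 0.880%, 1.27% and 0.928% of stromal barcodes.

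**Figure D1:**
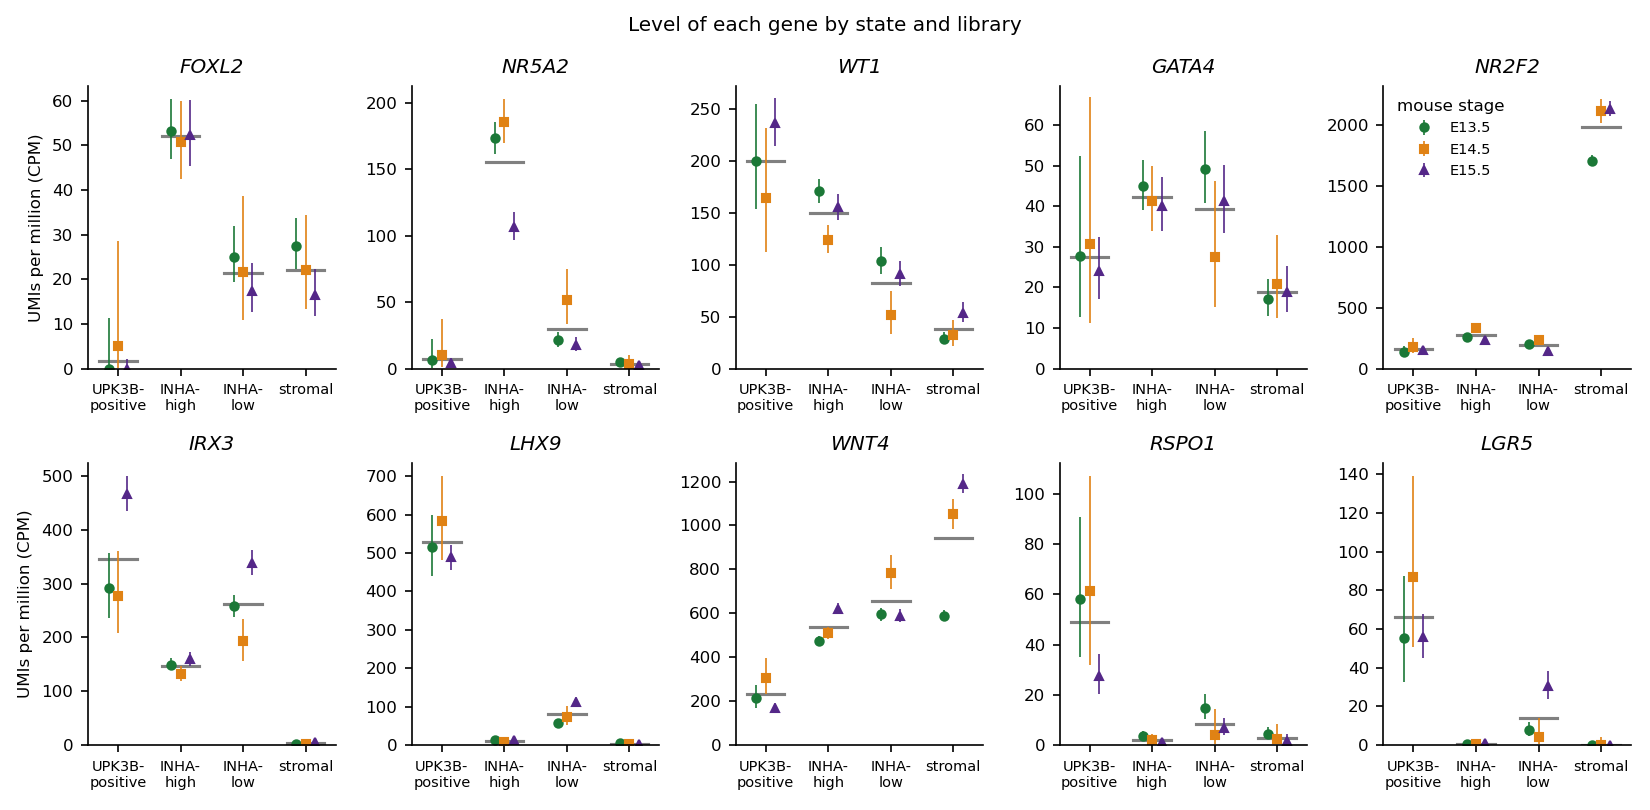
CPM of each gene in UMIs summed per state and library; points are the E13.5, E14.5 and E15.5 libraries, bars on points are exact 95% Poisson intervals and grey lines the means of 3 libraries. FOXL2 and NR5A2 stand highest in the INHA-high state, NR2F2 in the stromal state, and LHX9, RSPO1 and LGR5 in the UPK3B-positive state.

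WT1 and GATA4, zinc finger factors needed to form the gonad, were spread over all 4 states. WT1 had 199, 164 and 236 CPM in UPK3B-positive, 171, 124 and 155.2 CPM in INHA-high, 104, 51.2 and 91.0 CPM in INHA-low and 28.8, 32.4 and 53.7 CPM in stromal barcodes. It was higher in INHA-high than in INHA-low barcodes by a log2 fold change of 0.76 ± 0.15 (SE, adjusted p = 0.00045), with ranges that did not overlap. GATA4 had 27.4 ± 3.40 CPM in UPK3B-positive, 42.1 ± 2.52 CPM in INHA-high, 39.2 ± 10.9 CPM in INHA-low and 18.9 ± 1.88 CPM in stromal barcodes (SD, n = 3 libraries each). The INHA-high and INHA-low values of GATA4 overlapped, and the difference did not pass the test (log2 fold change -0.06 ± 0.15 SE, adjusted p = 0.85), and both states were above the stromal one, by log2 fold changes of 1.02 (adjusted p = 1.5e-05) and 1.08 (adjusted p = 3.2e-05). The lower GATA4 of the UPK3B-positive state against the INHA-high one (log2 fold change -0.59, adjusted p = 0.0496) lost its call under 13 of 14 other settings, all but the one without a filter on low counts.

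NR2F2, an orphan nuclear receptor of interstitial cells, was highest in the stromal state. It had 135.03, 179 and 156 CPM in UPK3B-positive, 259, 336 and 232 CPM in INHA-high, 201, 232 and 143 CPM in INHA-low and 1707, 2113 and 2133 CPM in stromal barcodes. The stromal values lay above all others, with a log2 fold change of -3.52 ± 0.14 SE for INHA-low over stromal barcodes (adjusted p = 2.9e-17). NR2F2 was 1.40-fold higher in INHA-high than in INHA-low barcodes (adjusted p = 0.013), with overlapping ranges. Its call was lost under 6 of 16 other settings, with adjusted p between 0.064 and 0.54, among them those without E14.5 and without E15.5. After thinning, an NR2F2 UMI was found in 44.99%, 61.6% and 47.97% of INHA-high barcodes, against 96.8%, 96.8% and 95.6% of stromal barcodes.

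IRX3, a homeobox factor that mouse granulosa cells need for their contact with the oocyte, was close to absent from stromal barcodes. It had 292, 276 and 467 CPM in UPK3B-positive, 149, 132 and 160 CPM in INHA-high, 258, 193 and 339 CPM in INHA-low and 2.70, 2.32 and 6.15 CPM in stromal barcodes. Each INHA-low value exceeded every INHA-high value. IRX3 was 1.86-fold lower in INHA-high than in INHA-low barcodes (log2 fold change -0.89 ± 0.12 SE, adjusted p = 2.7e-06) and 62.8-fold higher in INHA-low than in stromal barcodes (adjusted p = 2.5e-18). The first of these was not called at Leiden resolution 0.5 (adjusted p = 0.0501). The 1.38-fold higher level in UPK3B-positive than in INHA-low barcodes (adjusted p = 0.017) was lost under 7 of 16 other settings, with adjusted p between 0.065 and 0.95. These were no filter on low counts, DESeq2's Wald test, no block, Leiden resolution 0.5, the UMI gates, the INHA-low clusters under 600 CPM of INHA alone, and leaving out E15.5.

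LHX9, a LIM homeobox factor without which the mouse gonad does not form, was mainly a gene of the UPK3B-positive state. It had 516, 583 and 488 CPM in UPK3B-positive, 13.0, 8.64 and 13.6 CPM in INHA-high, 58.1, 72.8 and 111 CPM in INHA-low and 4.49, 2.32 and 2.87 CPM in stromal barcodes. The 4 states did not overlap. LHX9 was 6.52-fold higher in UPK3B-positive than in INHA-low barcodes (adjusted p = 1.6e-12) and 6.93-fold lower in INHA-high than in INHA-low barcodes (log2 fold change -2.79 ± 0.19 SE, adjusted p = 1.1e-10). An LHX9 UMI was found after thinning in 74.3%, 64.3% and 65.9% of UPK3B-positive barcodes and in 1.58%, 0% and 0.696% of stromal barcodes.

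WNT4, the secreted ligand of ovarian fate, was present in every state and on average was not highest in the INHA-high or INHA-low state. It had 215, 307 and 171 CPM in UPK3B-positive, 474, 511 and 621 CPM in INHA-high, 595, 785 and 589 CPM in INHA-low and 589, 1050 and 1188 CPM in stromal barcodes. INHA-high and INHA-low values overlapped (log2 fold change -0.34 ± 0.14 SE, adjusted p = 0.11), although without the E15.5 library WNT4 was lower in INHA-high barcodes (log2 fold change -0.56, adjusted p = 0.0019). Stromal WNT4 varied most between libraries: the INHA-low state was lower than the stromal one by a log2 fold change of -0.62 ± 0.14 SE (adjusted p = 0.0014), in 2 of 3 libraries, and this call was lost without E15.5 (adjusted p = 0.066). The UPK3B-positive values lay below all others.

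RSPO1, the secreted amplifier of WNT signals, and LGR5, one of its receptors, were both highest in the UPK3B-positive state. RSPO1 had 58.3, 61.4 and 27.3 CPM in UPK3B-positive barcodes, 3.41, 1.88 and 1.06 CPM in INHA-high, 14.9, 3.94 and 6.65 CPM in INHA-low and 4.19, 2.32 and 1.64 CPM in stromal barcodes. LGR5 had 55.2, 87.0 and 55.8 CPM in UPK3B-positive, 0.639, 0.376 and 1.06 CPM in INHA-high and 7.85, 3.94 and 30.3 CPM in INHA-low barcodes. No LGR5 UMI was found among 6640963 UMIs of 1391 stromal barcodes. The INHA-high state was lower than the INHA-low one in RSPO1 by a log2 fold change of -2.22 ± 0.36 SE (adjusted p = 5.6e-05). LGR5 was lower there by -4.42 ± 0.51 SE (adjusted p = 7.9e-07). The INHA-high state held 25 RSPO1 UMIs against 56, and 8 LGR5 UMIs against 95. E15.5 held 73 of the 95, and without it the LGR5 difference was -3.66 (adjusted p = 0.00096). Both differences had the same sign in 3 of 3 libraries. In E14.5, however, the INHA-low barcodes held fewer than 3 UMIs of each gene, too few to read a direction. Set against a floor of 3 counts over the stromal state, LGR5 was at least 129-fold higher in UPK3B-positive and at least 38.5-fold higher in INHA-low barcodes. The bound for INHA-low was 10.1-fold without E15.5, and that for UPK3B-positive barcodes was 64.8-fold without E13.5. After thinning, an LGR5 UMI was found in 11.4%, 7.14% and 10.9% of UPK3B-positive barcodes and in 0 of 1157 stromal barcodes. Both were also higher in UPK3B-positive than in INHA-low barcodes, 4.89-fold for RSPO1 (adjusted p = 4.5e-06) and 3.40-fold for LGR5 (adjusted p = 0.00064). Without E15.5 the LGR5 difference was 9.47-fold (adjusted p = 0.00013). These differences are from the pooled INHA-low state. Against its clusters under 600 CPM of INHA alone, described below, neither RSPO1 (adjusted p = 0.096) nor LGR5 (adjusted p = 0.91) was called. In E15.5 LGR5 stood at 69.2 CPM in those clusters, above its UPK3B-positive value of 55.8 CPM.

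Counted together, 8 of the 10 genes were called between INHA-high and INHA-low barcodes at an adjusted p under 0.05, where 15.3% of the 7750 genes tested were called. FOXL2, NR5A2, WT1 and NR2F2 were higher in the INHA-high state, and IRX3, LHX9, RSPO1 and LGR5 were lower. The median size of change was 1.06 on the log2 scale over the 10 genes and 0.24 over all genes. The variable genes used to cluster were left out of the genes tested. The 10 genes and the lists read below were instead kept out of the clustering, so they were tested however variable they were. The shares and medians over all genes thus come from a set that is not like them. Between INHA-high and stromal barcodes 8 were called (6 higher, 2 lower) against 40.3% of all genes, and between INHA-low and stromal barcodes 9 (7 higher, 2 lower) against 32.4%. The UPK3B-positive state differed from the INHA-high state in 10 (5 higher, 5 lower) against 26.2%, from the INHA-low state in 8 (5 higher, 3 lower) against 10.1%, and from the stromal state in 8 (5 higher, 3 lower) against 25.6%. All 10 genes passed the filter on low counts, which a gene can pass through the 1 state where it is high. RSPO1 and LGR5 were highest in the UPK3B-positive state and low in the INHA-high and stromal ones, so the filter is not neutral for them. With no filter on low counts, both were still called in UPK3B-positive over each other state.

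The states were drawn from the same barcodes that the test then compares, so its p-values can be too small. With the UMIs split at random, clustering on one portion and the test on the other, the same 8 genes were called between INHA-high and INHA-low barcodes, with NR5A2 at a log2 fold change of 1.97 and LGR5 at -5.34. Of all 6595 genes tested in that fit, 367 were higher and 343 lower. With states set by UMI gates on INHA, collagen and UPK3B and no clustering, NR5A2 alone was called there (log2 fold change 0.77, adjusted p = 0.0092). Of all 8238 genes tested with the gates, 43 were higher and 15 lower there. Without the library as a block, IRX3 (adjusted p = 0.057), WT1 (0.15) and NR2F2 (0.32) were not called. In the gated fit the E14.5 UPK3B-positive sum, with under 20 barcodes, was left out.

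**Figure D2:**
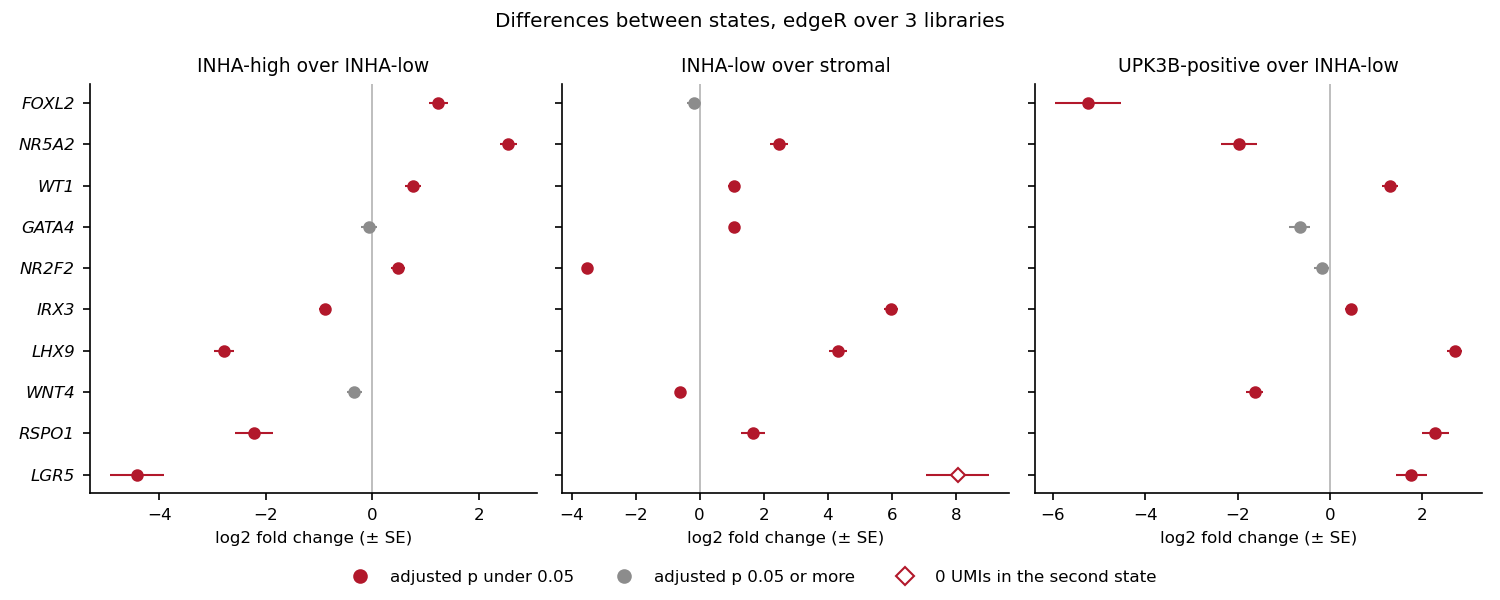
Log2 fold changes ± SE of the 10 genes in 3 comparisons of states (edgeR, 3 libraries, first-named state over the second); red is an adjusted p under 0.05, grey is not, and the open diamond has 0 UMIs in the second state, so its size is set by the fit. LHX9, RSPO1 and LGR5 lie left of 0 between INHA-high and INHA-low and right of 0 between UPK3B-positive and INHA-low barcodes.

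The INHA-low state was not uniform. It held 1 cluster of 524 barcodes with INHA at 1129 CPM and 5 smaller clusters, 211 barcodes in all (58, 15 and 138 by library), with INHA at 136 to 590 CPM. FOXL2 had 2.31 CPM (exact 95% interval 0.629 to 5.91) in the clusters under 600 CPM of INHA and 30.3 CPM (24.97 to 36.4) in the cluster over 600 CPM. NR5A2 had 2.31 CPM and 31.9 CPM in the same portions. In the opposite direction, LGR5 had 50.2 CPM (40.2 to 61.9) under 600 CPM of INHA and 2.14 CPM (0.926 to 4.23) over it, LHX9 had 151 and 51.5 CPM, RSPO1 had 20.2 and 5.63 CPM and IRX3 had 369 and 249 CPM. NR2F2 was at 81.9 CPM under 600 CPM of INHA and at 223 CPM over it, while GATA4 (46.1 and 42.4 CPM), WT1 (103 and 88.7 CPM) and WNT4 (662 and 586 CPM) differed less. The portions were separated after the clusters had been seen and come from the clustered cells, so these values are a description.

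Each of the 5 small clusters showed this pattern in LGR5 (25.9 to 110 CPM), LHX9 (120 to 202 CPM) and FOXL2 (at most 7.86 CPM). The E14.5 library gave them 15 barcodes in all. RSPO1 did not follow it in each of them, with 0 CPM in a cluster of 36 barcodes and 35.1 CPM in one of 26. With the cluster over 600 CPM of INHA alone as the INHA-low state, 5 of the 10 genes were called against INHA-high barcodes (FOXL2, NR5A2, WT1, IRX3 and LHX9), and LGR5 (log2 fold change -1.60, adjusted p = 0.20) and RSPO1 (-1.32, adjusted p = 0.066) were not. Of all 7201 genes tested in that fit, 306 were higher and 280 lower in INHA-high barcodes. With the clusters under 600 CPM alone, in a fit without their E14.5 sum, WT1 was not called against INHA-high barcodes (adjusted p = 0.072), and LGR5, RSPO1, NR5A2, IRX3 and FOXL2 were not called in UPK3B-positive over INHA-low barcodes (adjusted p = 0.91, 0.096, 0.55, 0.95 and 0.44). LHX9 was still higher in UPK3B-positive barcodes, by a log2 fold change of 1.80 (adjusted p = 2.2e-08), NR2F2 was then higher there (0.85, adjusted p = 0.0071) and GATA4 lower (-0.92, adjusted p = 0.029).

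**Figure D3:**
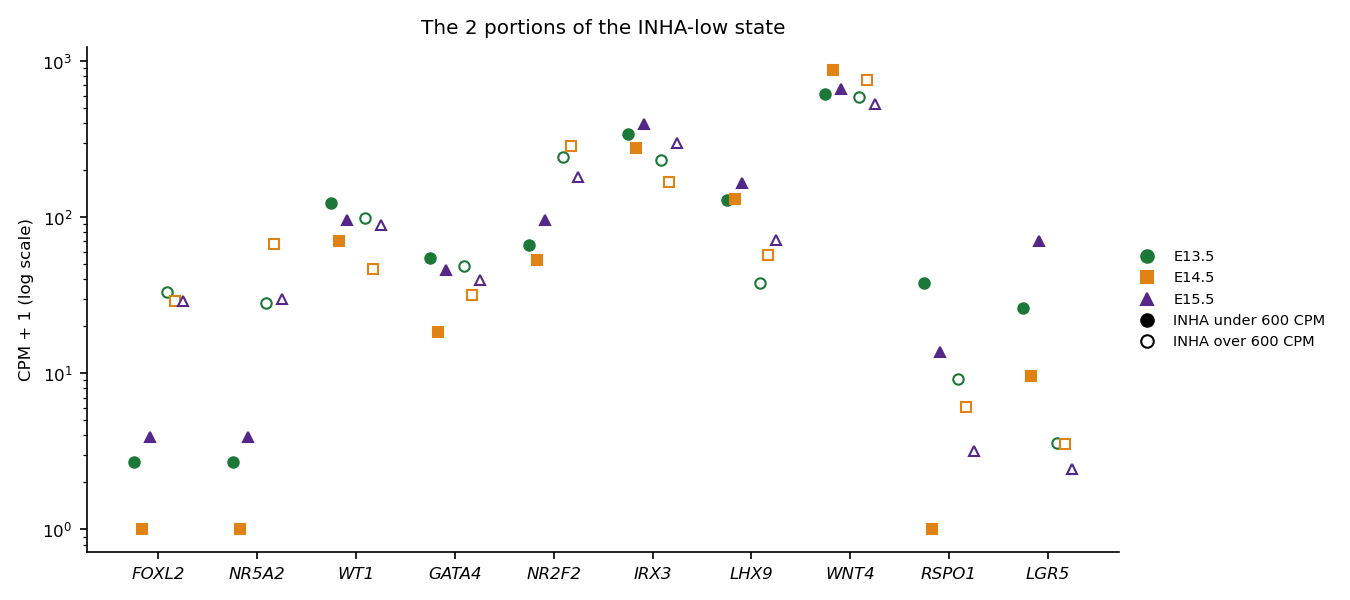
CPM + 1 (log scale) of each gene in the clusters of the INHA-low state under 600 CPM of INHA (filled) and in its cluster over 600 CPM (open), by library. In 3 of 3 libraries NR2F2 stands lower and LHX9 and IRX3 higher in the filled symbols; in E13.5 and E15.5 FOXL2 and NR5A2 stand lower and LGR5 higher, while the E14.5 clusters under 600 CPM hold 0 UMIs of FOXL2 and NR5A2 and 1 of LGR5, too few to read a direction.

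The 2114 INHA-high and INHA-low barcodes were also binned by their own INHA UMIs, as a description without a test. In barcodes with under 2 INHA UMIs per 10000 (n = 305), LGR5 was at 21.8 CPM, LHX9 at 107 CPM, IRX3 at 329 CPM, NR5A2 at 16.9 CPM and FOXL2 at 19.8 CPM. In barcodes with 40 or more (n = 372), LGR5 was at 0 CPM, LHX9 at 21.6 CPM, IRX3 at 146 CPM, NR5A2 at 167 CPM and FOXL2 at 50.8 CPM. NR5A2 was at 22.3 CPM from 2 to 5 INHA UMIs per 10000 and at 93.8 CPM from 5 to 10. WNT4 stayed between 515 and 740 CPM in all bins with the 3 libraries pooled. Single libraries went outside this range, such as E13.5 at 441 CPM in the bin of 40 or more and E14.5 at 783.5 CPM from 2 to 5. The lowest bins of E14.5 held 20 and 23 barcodes, so its values there rest on few UMIs.

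**Figure D4:**
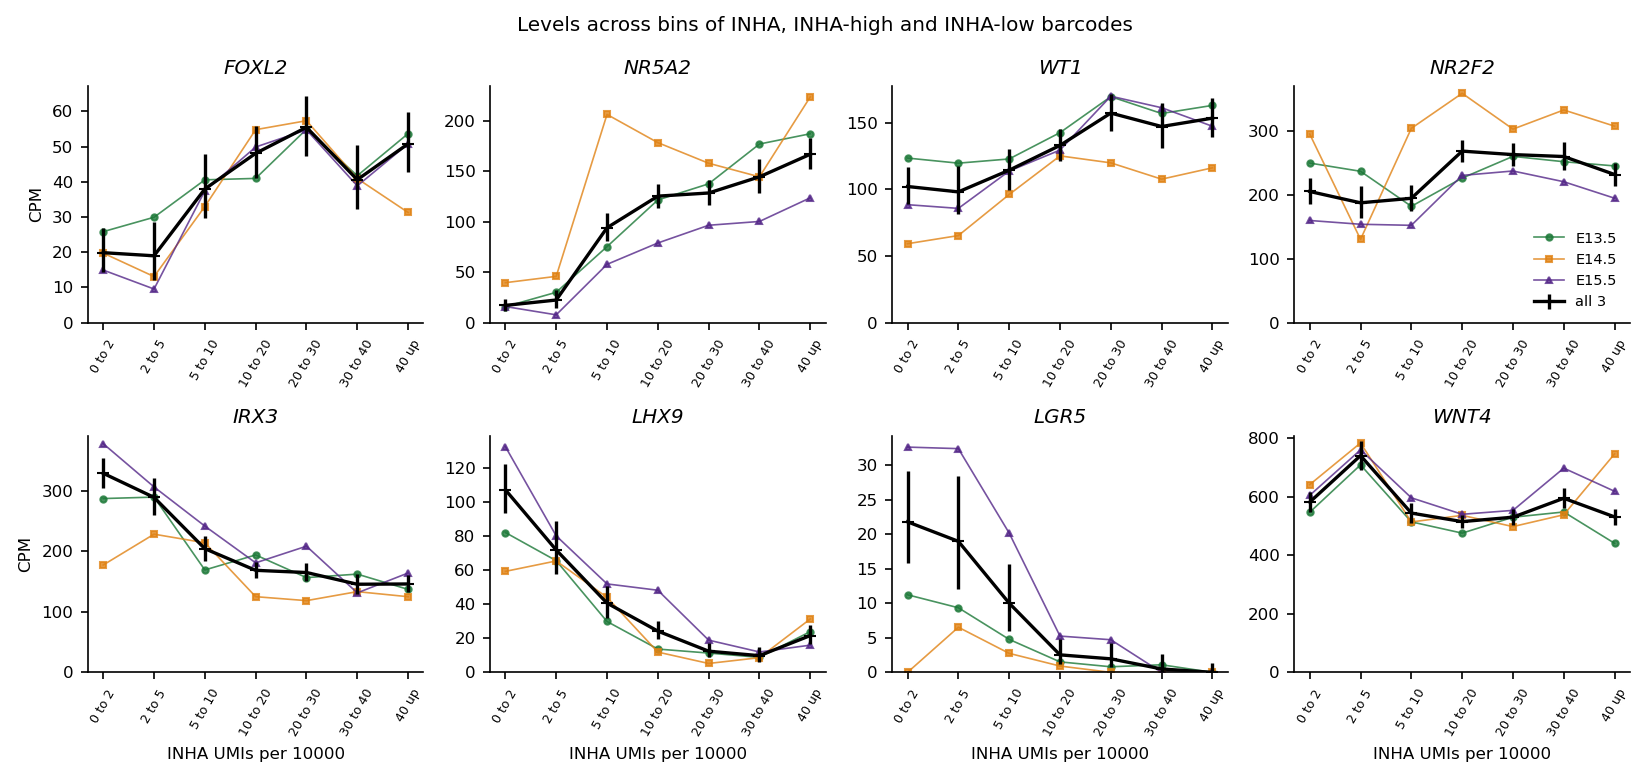
CPM of 8 of the genes in INHA-high and INHA-low barcodes binned by INHA UMIs per 10000; coloured lines are libraries and the black line all 3 together with exact 95% Poisson intervals. NR5A2 stands at 16.9 CPM in the lowest bin and 167 CPM in the highest, and LGR5 at 21.8 and 0 CPM.

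Co-detection was read in barcodes thinned to 3000 UMIs, where the mean number of the 10 genes with a UMI was 2.80 ± 0.090 in UPK3B-positive, 2.46 ± 0.094 in INHA-high, 2.17 ± 0.020 in INHA-low and 1.93 ± 0.089 in stromal barcodes (SD, n = 3 libraries). In INHA-low barcodes a UMI of LHX9 went with more frequent UMIs of LGR5, IRX3 and WT1. An LGR5 UMI was found in 13.1% of the 137 barcodes with an LHX9 UMI (Clopper-Pearson 95% interval 7.98 to 19.97%) and in 2.77% of the 577 without (1.59 to 4.46%), with 0 LGR5 UMIs in either group of E14.5. An IRX3 UMI was found in 62.8% of those with LHX9 (54.1 to 70.9%) and 47.3% of those without (43.2 to 51.5%), higher with LHX9 in 3 of 3 libraries. A WT1 UMI was found in 34.3% and 20.5% of them, but in E13.5 alone the shares were 24.4% and 26.7%. NR2F2 ran the other way, in 11.8% of the 34 barcodes with LGR5 and in 33.2% of the 680 without. The INHA-low state pools its 2 portions, which differ in these genes after thinning. Under and over 600 CPM of INHA, LGR5 was found in 15.3% and 0.396% of barcodes and LHX9 in 35.9% and 12.3%. IRX3 was found in 63.2% and 44.95% and NR2F2 in 18.2% and 38.0%. A link within cells and the mix of the portions cannot be told apart in the pooled state.

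In the INHA-high state a FOXL2 UMI was more frequent with WT1, in 18.998% of the 479 barcodes with a WT1 UMI (15.6 to 22.8%) and 12.1% of the 876 without (10.0 to 14.4%). The share was higher with WT1 in each library: 17.1% against 11.8% in E13.5, 26.1% against 10.2% in E14.5 and 17.5% against 13.8% in E15.5. These were 1 of 45 gene pairs in the INHA-high state and 4 of 45 in the INHA-low state whose intervals did not overlap, against 0 of 45 in the UPK3B-positive and 2 of 45 in the stromal state, with no correction for the number of pairs. The intervals treat barcodes pooled over the libraries as independent, although cells are not replicates. The share of such pairs among other genes is not known, so these counts are a description and not a test. The INHA-high state also pools clusters that differ in FOXL2 and WT1. The cluster of 280 barcodes had 35.7 CPM of FOXL2 and 130 CPM of WT1. That of 502 had 52.6 and 153 CPM, and that of 597 had 59.0 and 165 CPM. A link of FOXL2 and WT1 within cells and the mix of these clusters cannot be told apart. Without thinning, 6 of the 2114 INHA-high and INHA-low barcodes held UMIs of both FOXL2 and LGR5, which is 1.13% of the 531 with FOXL2 and 8.57% of the 70 with LGR5.

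Between stages there was 1 library each, so ratios have no replicate check and no test. Of 20 pairs of gene and state with at least 20 CPM, 2 passed 2-fold between E14.5 and E13.5, both in the INHA-low state, against 7.12% of all gene and state pairs (4.9% in INHA-high, 8.94% in INHA-low and 7.55% in stromal barcodes). NR5A2 in INHA-low barcodes stood at 51.2 CPM in E14.5 and 21.2 CPM in E13.5, and WT1 there at 51.2 and 104 CPM, with 68 INHA-low barcodes in E14.5. Between E15.5 and E13.5, 2 of 20 pairs passed, against 2.56% (1.84%, 3.02% and 2.85% in the same states). LGR5 in INHA-low barcodes stood at 30.3 CPM (exact 95% interval 23.8 to 38.1) in E15.5 and 7.85 CPM (4.79 to 12.1) in E13.5, and stromal WNT4 at 1188 and 589 CPM. The stromal pair was not past 2-fold with TMM factors or without barcodes with 2 or more germ cell UMIs. The stromal clusters also differed between the libraries: one with WNT4 at 1080 CPM held 233 of 595 stromal barcodes in E15.5 and 55 of 612 in E13.5.

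The LGR5 values moved with the clusters that each library held. Clusters of 35 and 36 INHA-low barcodes with 63.0 and 110 CPM of LGR5 held 33 and 36 barcodes of E15.5 and 0 of E13.5. Monkey germ cell markers summed to 73.5 and 78.61 CPM in these clusters, and to 22.63 to 35.13 CPM in the other INHA-low clusters. Without barcodes with 2 or more germ cell UMIs, LGR5 in INHA-low barcodes still passed 2-fold in E15.5 over E13.5. In E14.5 the portion under 600 CPM of INHA held 1 LGR5 UMI in 15 barcodes (8.69 CPM), too few to rank. Within this portion LGR5 had 69.2 CPM in E15.5 and 25.3 CPM in E13.5. Whether mouse stage or the makeup of single libraries sets this cannot be told apart. In INHA-high barcodes E15.5 differed from E13.5 by -0.03 for FOXL2 and by -0.69 for NR5A2 on the log2 scale, both short of 2-fold, with most E15.5 barcodes in the cluster of 502 and most E13.5 barcodes in the other 2. The UPK3B-positive state had too few barcodes in E13.5 and E14.5 for this comparison.

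Genes whose levels followed these 10 most closely were sought over the 12 sums of state and library, among 4590 genes with a mean of at least 20 CPM. The sums share cells and libraries, so the correlations describe these 12 points. For FOXL2 they were CHN2 (Pearson r = 0.97), GREB1 (0.94) and FAM3C (0.93), for NR5A2 ACIN1 (0.98), GTF2A1 (0.96) and SYTL4 (0.96), for WT1 KLHL2 (0.95), FGFR2 (0.92) and MAST4 (0.92), and for GATA4 STK24 (0.95), BECN1 (0.94) and MTCL1 (0.92). NR2F2 was followed by COL12A1 (0.98), LRRC17 (0.97) and RABGAP1L (0.97), and IRX3 by SYNGR1 (0.995), IRX5 (0.99), another Iroquois factor, and CDH2 (0.99). LHX9 was followed by NDST4 (0.98), LOC102124074 (0.98) and KRT19 (0.98), and LGR5 by KRT19 (0.98), LHX9 (0.98) and KRT13 (0.97). For WNT4 they were TOR1B (0.94), PDE8A (0.94) and MARCKS (0.93), and for RSPO1 ATP5L (0.99), MAN1A1 (0.96) and SCHIP1 (0.95).

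Other genes of the WNT route were read from lists chosen with earlier results of these data known. All list genes below were read only in the main fit, with the 2 portions of the INHA-low state pooled. They were not read by portion or with the UMI gates. With those gates, 43 of all 8238 genes were higher and 15 lower in INHA-high than in INHA-low barcodes. Of 5 R-spondins, R-spondin receptors and their ligases tested, 1 was higher and 3 were lower in INHA-high than in INHA-low barcodes, where 15.3% of all genes were called, with a list median of -0.74 against 0.03 over all genes (log2). ZNRF3, the ligase that removes WNT receptors, averaged 49.4 ± 5.05 CPM in INHA-high and 24.6 ± 6.06 CPM in INHA-low barcodes (adjusted p = 8.1e-05). LGR4, another R-spondin receptor, averaged 56.4 ± 10.1 and 90.2 ± 6.86 CPM (adjusted p = 0.00021), and LGR6 and RSPO3 were also lower. RSPO3, a second R-spondin, averaged 3.91 ± 2.33 CPM in INHA-low and 49.7 ± 31.2 CPM in stromal barcodes (adjusted p = 2.1e-10). RNF43 and LGR4 were higher in INHA-low than in stromal barcodes.

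Of 8 WNT ligand and secretion genes tested, 0 were higher and 3 (WNT9A, WNT5A and WNT11) lower in INHA-high than in INHA-low barcodes, while 2 were higher and 4 lower in INHA-low than in stromal barcodes, against 15.3% and 32.4% of all genes called in these comparisons. WNT6 averaged 109 ± 50.2 CPM in INHA-low and 4.38 ± 1.82 CPM in stromal barcodes (adjusted p = 5.3e-15), and WNT11 was also higher. WNT5A, a ligand of the non-canonical route, averaged 8.79 ± 2.69 and 63.1 ± 21.8 CPM (adjusted p = 3.0e-10), and WNT16 and PORCN were lower too. The WNT antagonist SFRP1 averaged 16.8 ± 11.1 CPM in INHA-low and 941 ± 424 CPM in stromal barcodes (log2 fold change -6.09, adjusted p = 1.4e-20). SFRP1 averaged 56.0 ± 13.0 CPM in INHA-high and 16.8 ± 11.1 CPM in INHA-low barcodes (adjusted p = 7.5e-08). It was 1 of 2 antagonists tested, and the other was not called in either comparison.

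Of 11 frizzled receptors and co-receptors, 2 were higher (FZD3 and LRP6) and 2 lower (FZD1 and FZD7) in INHA-high than in INHA-low barcodes, and 2 were higher (FZD6 and FZD3) and 6 lower, FZD1, ROR1 and FZD2 first by size, in INHA-low than in stromal barcodes (all genes 15.3% and 32.4%). Of 14 beta-catenin effectors and targets, 1 was higher and 4 lower in INHA-high than in INHA-low barcodes, which is 35.7% against 15.3% of all genes. TCF7L2, a partner of beta-catenin on DNA, averaged 204 ± 13.2 CPM in INHA-high and 98.6 ± 16.2 CPM in INHA-low barcodes (adjusted p = 1.2e-07), and LEF1, SP5 and TNFRSF19 were lower. AXIN2, a direct target of beta-catenin, averaged 81.8 ± 13.4 CPM in INHA-low and 36.3 ± 7.17 CPM in stromal barcodes (adjusted p = 8.6e-07), 1 of 2 genes of that list that were higher there, with SP5, against 2 lower (TCF7L1 and NKD1). These 4 of 14 genes are 28.6%, no more than the 32.4% of all genes called there.

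Of 18 other gonadal transcription factors tested, 6 were higher and 6 lower in INHA-high than in INHA-low barcodes, and 7 higher and 7 lower in INHA-low than in stromal barcodes. These are 66.7% and 77.8% of the list, against 15.3% and 32.4% of all genes tested, a set without the variable genes used to cluster. FOXO1, a factor of granulosa cells, averaged 143 ± 37.6 CPM in INHA-high and 49.6 ± 7.31 CPM in INHA-low barcodes (adjusted p = 5.0e-08), and ESR2 and HMGA2 were higher too, while TCF21 was lower in 3 of 3 libraries and NR0B1 in 2 of 3. IRX5 averaged 419 ± 129 CPM in INHA-low and 6.18 ± 4.59 CPM in stromal barcodes (adjusted p = 6.0e-19), and EMX2, needed for the gonadal epithelium in mouse, 306 ± 53.1 and 54.3 ± 16.96 CPM (adjusted p = 1.7e-13). NR2F1, a nuclear receptor related to NR2F2, averaged 2.53 ± 0.586 CPM in INHA-low and 45.96 ± 6.68 CPM in stromal barcodes (adjusted p = 4.6e-11). Of 5 testis-type genes tested, DHH was higher and SOX9, NR0B1 and FGF9 lower in INHA-high than in INHA-low barcodes, where 15.3% of all genes were called. SOX9, the driver of the testicular supporting cell, averaged 16.8 ± 7.22 CPM in INHA-high and 54.9 ± 14.96 CPM in INHA-low barcodes (adjusted p = 5.0e-08), and 39.4 ± 6.49 CPM in stromal barcodes (adjusted p = 0.048 for INHA-low over stromal).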

How the data were processed

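Raw UMI counts per monkey gene and barcode were deposited by the authors. Per the file headers the software was Cell Ranger 6.0.1; the matrices hold only barcodes called as cells. No genome build is given in the sources used here. UPK3B is listed under a LOC name and was matched through the RefSeq gene table. The 4099 mouse barcodes were clustered with scanpy 1.11.5 (2000 variable genes, 30 components, Leiden resolution 1) without the 10 genes and the 7 pathway lists. Clusters became states by levels of INHA, AMHR2, collagens and UPK3B, by a rule set after the marker levels of the clusters had been seen. Clusters with INHA and collagen together (167 barcodes), with LTF and EHF (63), with germ cell RNA (32) or unnamed (34) were left out of the states. Scrublet marked 14, 9 and 70 barcodes, which were kept. UMIs were summed per state and library (12 sums, at least 20 barcodes each) and tested with edgeR 4.0.16 (quasi-likelihood, TMM, filterByExpr, library as block, Benjamini-Hochberg over 7750 genes, threshold 0.05), with the variable genes left out of the test. The 3 libraries serve as repeats although they differ in mouse stage and nothing says they are separate cultures of 1 condition, and library and stage cannot be told apart. CPM are UMIs per 1000000 UMIs summed, with exact 95% intervals that cover counting error only. Stages were compared as log2 ratios of CPM + 1. The test was tried on simulated data. All 10 genes are named, with the 3 genes most like each and up to 3 called genes per direction of each list, of which some are not reported here. The genes, lists and alternatives were chosen with earlier results of these data known. DESeq2 1.42.0, other filters, other clusterings and gates were tried as alternatives.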

Additional observations from a re-analysis of the deposited data

Results flagged for a closer look

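The germ cell barcodes, which enter no comparison above, held UMIs of all 10 genes above the floor of 3 counts. These were the 2216 barcodes with 3 to 20% mitochondrial UMIs, after 389 that a deeper barcode of another library duplicated had been left out. IRX3 stood at 39.05 CPM (46.5, 43.2 and 33.3 by library), NR2F2 at 30.55 CPM (30.2, 27.7 and 31.9) and GATA4 at 22.75 CPM (24.3, 23.8 and 21.4). NR5A2 stood at 7.225 CPM, FOXL2 at 5.033 CPM, WT1 at 4.107 CPM and LHX9 at 0.6771 CPM. Of the WNT genes, WNT4 stood at 7.875 CPM, LGR5 at 1.461 CPM and RSPO1 at 0.1425 CPM. Here reads of monkey transcripts meet monkey genes, but mouse RNA carried into a barcode would count there too, and its share was not tested. These levels and those of mouse barcodes are therefore not compared.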

How the results depend on the processing

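Of the 900 values of a gene in a comparison under 16 other settings, 820 kept their direction and their side of the threshold, 58 were no longer called with the same sign, 6 were newly called and 16 changed sign. In 9 of the 16 the value was called under neither setting: WNT4 in INHA-high over INHA-low (0.065 at Leiden resolution 0.5 and 0.12 with the gates), GATA4 there (-0.16 to 0.055 with 1 library left out), LGR5 in INHA-high over stromal (-1.11 with the gates), FOXL2 in INHA-low over stromal (0.27 with the cluster over 600 CPM alone), NR2F2 in UPK3B-positive over INHA-low (-0.47 to 0.011 with 1 library left out, 0.064 at Leiden resolution 0.5 and 0.015 without barcodes with UMIs of the other lineage), and NR5A2 in UPK3B-positive over stromal barcodes (-0.40 in that last setting). The library was the replicate block, since each library gave 1 sum per state. Without the replicate block, 5 genes were called between INHA-high and INHA-low barcodes, and 8, 7, 8, 7 and 8 in INHA-high over stromal, INHA-low over stromal, and UPK3B-positive over INHA-high, INHA-low and stromal barcodes. Leaving out 1 library at a time gave 7 to 8, 8 to 8, 8 to 9, 8 to 9, 6 to 8 and 8 to 8 genes in the 6 comparisons in the order of INHA-high over INHA-low and then as above. In INHA-high over INHA-low barcodes, 239 of all genes were higher and 266 lower of 7539 without E13.5. These were 522 and 591 of 7867 without E14.5, and 323 and 334 of 7204 without E15.5. Without E15.5, NR5A2 (adjusted p = 0.10) and IRX3 (0.36) were not called in UPK3B-positive over INHA-low barcodes, nor WT1 in UPK3B-positive over INHA-high barcodes (0.19). Without E13.5, RSPO1 was not called in INHA-low over stromal barcodes (0.0997). With UMI gates in place of clusters, 1 gene was called between INHA-high and INHA-low barcodes, and 4 further values changed sign: LHX9 in INHA-high over stromal (-1.23), and FOXL2 (0.53), RSPO1 (-0.12) and LHX9 (-0.024) in INHA-low over stromal barcodes. Of all 8238 genes tested with the gates, 43 were higher and 15 lower in INHA-high than in INHA-low barcodes. Gated barcodes were not always those of the clustered states: 63.45% of INHA-high and 47.21% of INHA-low barcodes got the same state. With the INHA-low cluster over 600 CPM of INHA alone, a setting added after seeing the data, 5 genes were called against INHA-high barcodes, where 306 of all 7201 genes were higher and 280 lower. With the clusters under 600 CPM alone, also added, 5 were called in UPK3B-positive over INHA-low barcodes, and NR5A2 (-0.50 in INHA-low over stromal, 1.04 in UPK3B-positive over INHA-low) and NR2F2 (0.85 in UPK3B-positive over INHA-low) changed sign. Of all 7535 genes tested in that fit, 209 were higher and 255 lower in UPK3B-positive over INHA-low barcodes. Between stages, pairs past 2-fold in E14.5 over E13.5 numbered 1 with DESeq2 size factors, a pseudocount of 5, the gates, at least 2000 UMIs or no barcodes with 2 or more germ cell UMIs, and 4 at Leiden resolution 0.5. In E15.5 over E13.5 they numbered 1 with TMM factors or without those germ cell UMI barcodes. The mean number of the 10 genes per INHA-low barcode was 2.94 after thinning to 5000 UMIs and 3.38 without thinning. The causes of these changes were not tested. LGR5, RSPO1 and FOXL2 are limited by depth, with 8 LGR5 and 25 RSPO1 UMIs in all INHA-high barcodes and 1 FOXL2 UMI in all UPK3B-positive ones.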

Other observations

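Some mouse barcodes lay outside the 4 states. In 167 barcodes with both INHA and collagen UMIs, NR2F2 was at 652 CPM, WNT4 at 659 CPM, NR5A2 at 96.7 CPM, FOXL2 at 31.7 CPM and LGR5 at 1.53 CPM. In 63 barcodes led by LTF and EHF, epithelial genes, IRX3 was at 143 CPM, NR2F2 at 148 CPM, GATA4 at 49.3 CPM, WT1 at 74.8 CPM, WNT4 at 85.1 CPM, FOXL2 at 6.80 CPM and LHX9 and LGR5 at 1.70 CPM each. In 9 barcodes led by TYROBP, an immune gene, all of the 10 genes but NR2F2 (19.8 CPM) had 0 UMIs, of 50588 UMIs in all.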
